A study of Mus musculus with 8 samples.

Results

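The 7 names of a mouse microRNA (miRNA) array described here are miR numbers whose annotation has been doubted: mmu-miR-720, mmu-miR-709, mmu-miR-690, mmu-miR-689, mmu-miR-691, mmu-miR-685 and mmu-miR-805. They were chosen by exact match of the array's own names. The match used no measured value, but the members were chosen with earlier results of these data known. All 7 were found among 650 names (611 mouse, 39 herpesvirus). RNA came from lung tissue of female C57BL/6 dams, instilled in pregnancy and killed when their pups were weaned, 26 to 27 days after exposure. The Printex 90 group (4 arrays) received this carbon black nanoparticle in nanopure water into the trachea, as 4 instillations of 0.067 mg (0.268 mg in all) on days 7, 10, 15 and then 18 of gestation. The vehicle control group (4 arrays) received nanopure water. The labels state neither the age of the mice nor that each array was 1 mouse, so p-values here cover the spread between arrays, which may be technical.

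A genuine miRNA is cut from a hairpin in a longer transcript and guides a silencing complex to messenger RNAs through its seed, the bases near its 5′ end. Short pieces of transfer RNA, ribosomal RNA and other abundant RNAs are of a like size and have entered miRNA catalogues under miR numbers. An array probe reports whichever RNA binds it, so a signal under such a name can come from any RNA with a matching end. It does not show a processed miRNA. miR-720 is now taken to be a fragment of a transfer RNA. miR-709 has been studied as a nuclear RNA that acts on the primary miR-15a/16-1 transcript, and miR-690 as cargo of vesicles from macrophages.

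The sequences of miR-690 and miR-691 are shown because the RefSeq table used here (GRCm38.p6) holds a mature form and a hairpin under these names. Exact name matches were found for 2 of the 7 members and for 162 of the 611 mouse names of the array, so a missing match says nothing about a name. The mature sequences have the seed, bases 2 to 8, in capitals.
miR-690: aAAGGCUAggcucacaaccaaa
miR-691: aUUCCUGAagagaggcagaaaa
Neither seed is shared with another of the 1679 mature mouse names in the table. The hairpins below have the mature part in capitals. Mir690 lies at chr16:28599935-28600043 on the minus strand, inside the interval of Fgf12, which encodes a fibroblast growth factor homologous factor. Mir691 lies at chr16:74341990-74342067 on the minus strand, inside the interval of Robo2, an axon guidance receptor.
Mir690: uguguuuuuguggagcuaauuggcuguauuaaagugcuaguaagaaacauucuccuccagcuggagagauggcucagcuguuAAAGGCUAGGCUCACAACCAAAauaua
Mir691: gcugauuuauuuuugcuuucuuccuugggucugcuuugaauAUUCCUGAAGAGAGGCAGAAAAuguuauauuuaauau
Mir709 has a RefSeq gene inside the interval of Rfx1, a transcription factor of the RFX family. Whether these positions are exonic or intronic was not determined here.

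Both hairpins were predicted to fold weakly for their length. With RNAfold, Mir690 (109 bases) had a minimum free energy of -26.6 kcal/mol per 100 bases and Mir691 (78 bases) of -20.0, where the median of 1005 mouse hairpins was -40.6. Only 5.57% of those hairpins folded more weakly than Mir690, and 0.498% more weakly than Mir691. Of the 22 bases of each mature sequence, 15 were paired in Mir690 and 18 in Mir691. The median over all located mature sequences was 81.0%, so Mir690 lay below it and Mir691 just above it. Among 42 neighbouring numbers (miR-673 to miR-721, other than the members), 29 had a hairpin in the table under the bare number. Copies with a suffix, such as Mir680-3 (-26.6), were not matched. The 29 had a median of -35.9 kcal/mol per 100 bases. They ran from -66.7 to -17.6, so weak folding was not particular to the members: Mir721 (-17.6) and Mir703 (-18.3) folded more weakly than Mir691. Predicted folding is a property of the annotation and uses no array value.

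**Figure D1:**
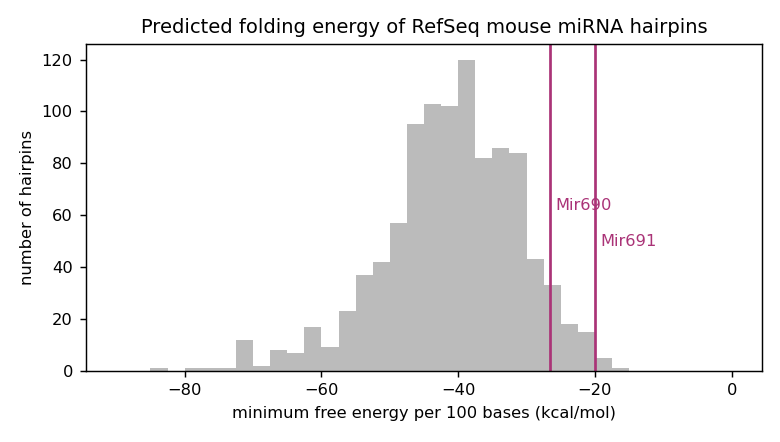
Histogram of the predicted minimum free energy per 100 bases (x axis, kcal/mol; y axis, number of hairpins) of the 1005 mouse miRNA hairpins in RefSeq, with lines at Mir690 (-26.6) and Mir691 (-20.0). Both lines lie on the weakly folding side of the distribution, whose median is -40.6.

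By signal the 7 names fell into 3 classes. Detection required that 50% or more of the spots kept for 1 of its probes be well above background on that array. miR-720, miR-709, miR-690 and miR-689 were detected on all 8 arrays, miR-691 on 4 (2 of each group), and miR-685 and miR-805 on none. Over the series, 248 to 283 mouse names were detected per array, 240 of them on every array, and 268 were tested. All 17 established lung miRNAs of a fixed list, such as let-7a, miR-126-3p and miR-145, were detected on every array, and the brain miRNAs miR-124 and miR-9 on none. Of the 49 names with neighbouring numbers 6 were detected on every array and 38 on none. Controls lay in slide row 1 and Printex 90 samples in row 2 of the same slide, so an effect of the row and one of the group cannot be told apart.

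The study set Printex 90 against vehicle to find miRNAs that differ in the lung after particle exposure in pregnancy. Of the 5 tested members 0 passed an adjusted p of 0.05 (limma, Benjamini-Hochberg over all 268) and 0 had an unadjusted p under 0.05. Over all tested names percent called was 0% at the adjusted threshold and 5.6% (15 names) at the unadjusted one. All 5 members had overlapping groups, where 1.49% of the tested names did not overlap. The signal was higher after Printex 90 for 2 members and lower for 3, and their median log2 difference (Printex 90 minus control) was -0.043, beside -0.046 over all tested names. The direction of 4 of the 5 changed under at least 1 other processing choice, and that of miR-690 under none.

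**Figure D2:**
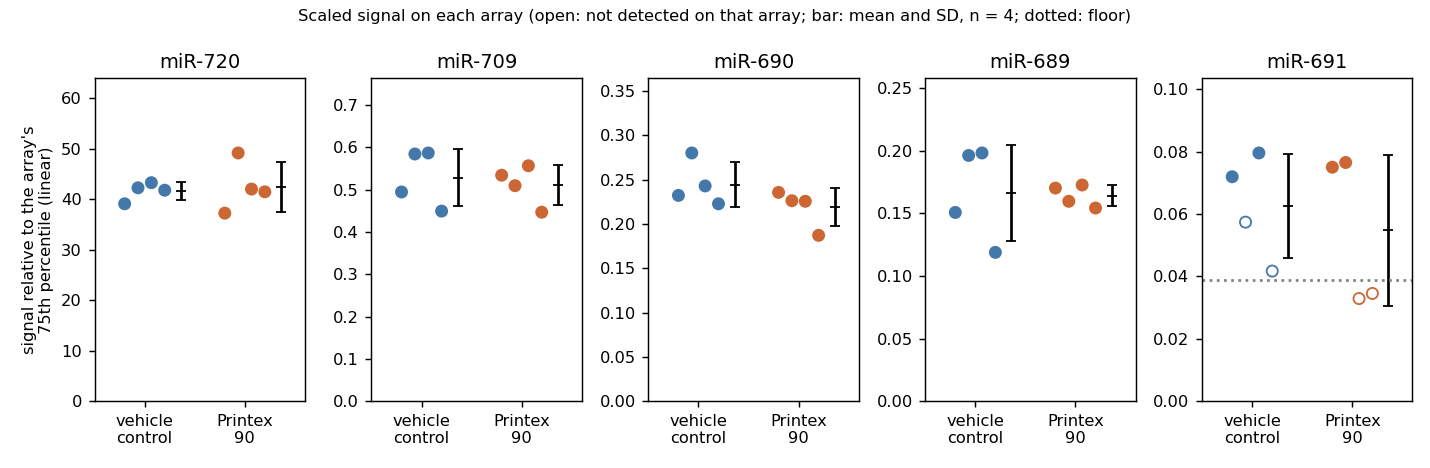
Scaled signal (y axis, relative to the array's 75th percentile, linear, own scale per panel) of the 5 tested members on each array, by group (x axis), with the mean and SD of n = 4 arrays beside the points. Open points mark arrays where the name was not detected, the dotted line is the floor, and the groups overlap in every panel.

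miR-720 gave the highest signal of all mouse names on 7 of 8 arrays and ranked 3 on vehicle control replicate 1. Its scaled signal was 39.1, 42.3, 43.3 and 41.8 on control replicates 1 to 4, and 37.3, 49.2, 42.0 and 41.5 on Printex 90 replicates 1 to 4. Both the lowest and the highest value belonged to Printex 90 arrays, so the controls lay inside the Printex 90 range. Controls averaged 41.6 ± 1.78 and Printex 90 samples 42.5 ± 4.94 (SD, n = 4 each), a 1.02-fold difference with a 95% interval from 0.887 to 1.17 (log2 difference 0.024, SE 0.083, limma adjusted p = 0.918). Without Printex 90 replicate 2, the highest array, the log2 difference was -0.049.

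The name alone held 8.14% to 10.5% of the summed mouse signal of an array. That share was 9.04% ± 0.626 in controls and 9.43% ± 0.805 after Printex 90 (SD, n = 4), and the other 6 members together held 0.185% to 0.257%. With normexp background miR-720 held 6.40% to 8.25% and the other 6 held 0.382% to 0.468%, and with probes averaged on the log2 scale miR-720 held 6.36% to 8.29%. These are shares of fluorescence, and probes differ in brightness per molecule, so they are not shares of RNA. miR-720 was also the name that reached the limit of the sensitive scan. The slide was read at a high and a low detector gain, and spots too bright for the high gain were taken from the low gain and scaled up. On each of 7 arrays miR-720 was the sole name with such spots (7 to 10 of them), and on Printex 90 replicate 3 it held 9 of 10, the other belonging to miR-341.

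miR-720 had 2 probes with 10 spots each, and the low gain readings all came from the brighter one (75 of its 78 kept spots). The dimmer probe was read at high gain throughout. The brighter probe averaged 24373 intensity units in controls (SD 2858, n = 4) and the dimmer one 4317 (SD 443). Their ratio stayed between 5.47 and 5.86 on all 8 arrays, a range of 1.07-fold, where the median range of 198 names with 2 such probes was 1.10-fold. The group difference was 0.024 on the log2 scale for the brighter probe and 0.021 for the dimmer one. The first was read mostly at low gain (7 of 10 kept spots on Printex 90 replicate 1) and the second at high gain. Spots of 1 probe on 1 array varied by a median of 1.86% (dimmer) and 2.63% (brighter).

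miR-709 measured 0.494, 0.584, 0.587 and 0.449 relative to the 75th percentile on control replicates 1 to 4. It measured 0.534, 0.509, 0.556 and 0.447 on Printex 90 replicates 1 to 4. Replicate 4 was the lowest of its group on both sides, and the groups overlapped over nearly their whole range. The means were 0.529 ± 0.0681 in controls and 0.512 ± 0.0473 after Printex 90 (SD, n = 4), a log2 difference of -0.043 (SE 0.11, limma adjusted p = 0.916) with a 95% interval from 0.811-fold to 1.16-fold. One of its 2 probes was 6.18 to 7.10 times brighter than the other, and the 2 differed by -0.037 and -0.080 on the log2 scale between groups.

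miR-690 had the lowest p of the members, at rank 45 of the 268. Its scaled signal was 0.232, 0.280, 0.243 and 0.223 in controls and 0.236, 0.226, 0.226 and 0.187 after Printex 90, in replicate order. Control replicate 2 was the highest and Printex 90 replicate 4 the lowest of the 8, and the other 6 arrays overlapped. The means were 0.245 ± 0.0251 and 0.219 ± 0.0215 (SD, n = 4), a log2 difference of -0.16 (SE 0.097, limma adjusted p = 0.706) with a 95% interval from 0.763-fold to 1.05-fold. Both probes were lower after Printex 90, by log2 differences of -0.18 and -0.14. Without scaling between arrays the log2 difference was -0.23 (unadjusted p = 0.0400 and adjusted p = 0.576 with limma). That setting put the median of all tested names at -0.12, and 9 of the 268 had an unadjusted limma p under 0.05.

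miR-689 measured 0.151, 0.196, 0.198 and 0.119 in controls and 0.170, 0.160, 0.173 and 0.154 after Printex 90, in replicate order. The controls held both the highest and the lowest values, and the 4 Printex 90 arrays lay between them. The SD was 0.0383 around a control mean of 0.166 and 0.00869 around a Printex 90 mean of 0.164 (n = 4 each), and a difference in spread was not tested. The log2 difference was 0.014 (SE 0.17, limma adjusted p = 0.985), from 0.767-fold to 1.33-fold in the 95% interval. The 2 probes disagreed in sign, at -0.075 for the dimmer and 0.055 for the brighter, and their ratio moved from 2.01 to 2.52 over the arrays, a 1.25-fold range.

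miR-691 was close to the limit of detection. It measured 0.0719, 0.0574, 0.0796 and 0.0417 in controls and 0.0750, 0.0765, 0.0329 and 0.0346 after Printex 90, in replicate order. Control replicates 1 and 3 and Printex 90 replicates 1 and 2 were detected, and Printex 90 replicates 3 and 4 lay under the floor of 0.0388, below which values have no order. The means over all arrays, detected or not, were 0.0627 ± 0.0167 and 0.0548 ± 0.0243 (SD, n = 4), a log2 difference of -0.17 on the floored values (SE 0.32, limma adjusted p = 0.854). Of its 4 probes the dimmest had 0 of 40 kept spots well above background, and the brightest 22 of 40. Spots of 1 probe varied by a median of 22.7% to 50.3%. Without Printex 90 replicate 3, or without replicate 4, the log2 difference was -0.0055, and without control replicate 4 it was -0.35. The scanner software's own flag called miR-691 detected on all 8 arrays.

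miR-685 and miR-805 gave no signal to compare. None of the 159 kept spots of miR-685 or the 157 of miR-805, over 4 probes each and 8 arrays, was well above background. The summed signal of miR-685 ran from -0.738 to 5.85 intensity units (median 3.89), and that of miR-805 from -1.15 to 6.55 (median 2.86). Means of single probes ran from -4.86 to 6.80 for miR-685 and from -5.23 to 8.41 for miR-805. Single negative control spots averaged 3.08 to 4.32 per array, with SDs of 5.07 to 7.66. The probe means of both names thus lay within the spread of spots meant to bind nothing, though a probe mean averages several spots. miR-805 was called detected on 1 array, vehicle control replicate 1, by the software's flag. In the authors' deposited table the log2 values of miR-685 (5.29 to 5.41) and miR-805 (5.28 to 5.31) were at or below the column medians (5.41 to 5.43). No fold is given for either, since neither was well above background on any array.

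**Figure D3:**
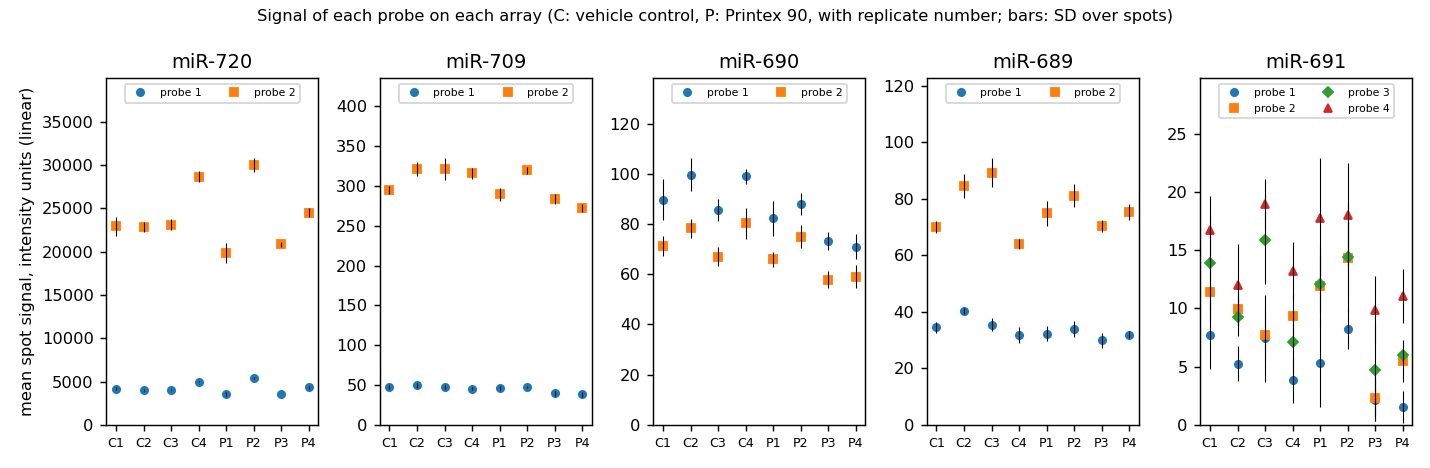
Mean spot signal (y axis, intensity units, linear, own scale per panel) of each probe of the 5 tested members on the 4 vehicle control arrays (C) and 4 Printex 90 arrays (P) along the x axis, with the SD over spots as bars. The 2 probes of miR-720 move together, from 3548 to 5447 and from 19887 to 29978, and the 4 probes of miR-691 lie between 1.52 and 19.0.

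The members gave different correlations with the overall brightness of an array, and the differences between them were not tested. Brightness was taken as the 75th percentile of the signals detected everywhere, which ran from 580.8 to 804.7 intensity units and is the value each array was divided by. Before that division miR-720 rose with brightness (Pearson r = 0.84, exact permutation p = 0.00813, Benjamini-Hochberg adjusted 0.0241 over the 240 names computed; Spearman rho = 0.79, permutation p = 0.0279, adjusted 0.0848; 8 arrays, 2-sided). Without control replicate 4 and Printex 90 replicate 3, the arrays farthest from the median brightness, r was 0.79. Following brightness was usual: the median r of the 240 names was 0.75, and 101 of them passed an adjusted p of 0.05. The herpesvirus names mcmv-miR-M23-1-5p (r = 0.87) and mcmv-miR-m88-1 (r = 0.85) followed it to a like degree. The remaining herpesvirus name detected on every array, mghv-miR-M1-2, did not clearly follow it (r = 0.455, exact permutation p = 0.254). miR-709 did not clearly follow it (r = 0.25, exact permutation p = 0.554, adjusted 0.583; rho = 0.071, permutation p = 0.882). Nor did miR-690 (r = 0.52, permutation p = 0.184, adjusted 0.250; rho = 0.52, permutation p = 0.197) or miR-689 (r = -0.36, permutation p = 0.384, adjusted 0.420; rho = -0.17, permutation p = 0.703). Without the same arrays r was -0.26 for miR-709, -0.16 for miR-690 and -0.46 for miR-689.

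**Figure D4:**
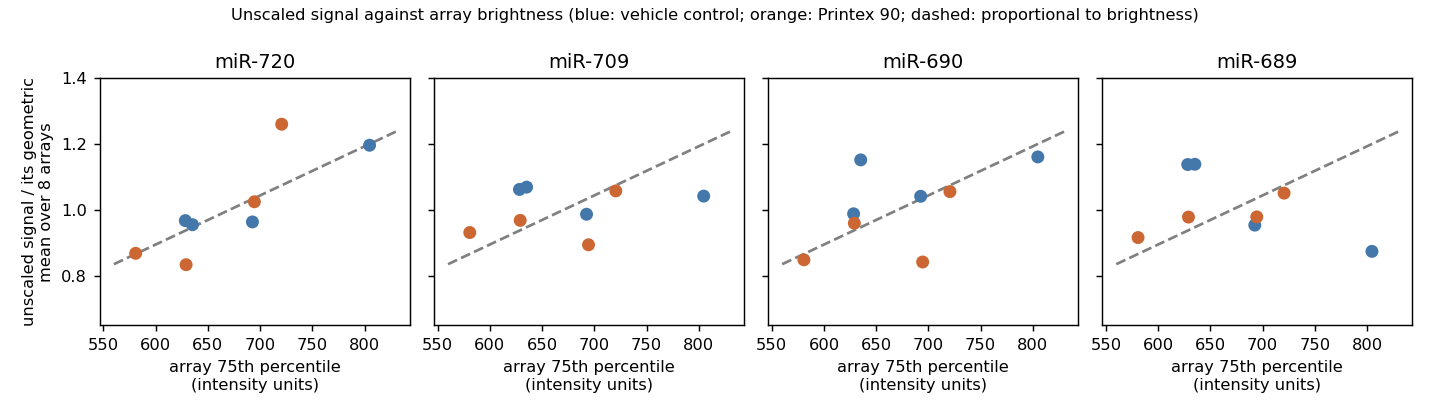
Unscaled signal of 4 members divided by its own geometric mean (y axis) against the array's 75th percentile (x axis, intensity units), 1 point per array (blue, vehicle control; orange, Printex 90), with a dashed line where a signal proportional to brightness would lie. miR-720 lies along the line (slope 1.18 on log2 axes), and the slopes were 0.164 for miR-709, 0.630 for miR-690 and -0.340 for miR-689.

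The slope of log2 signal on log2 brightness was 1.18 for miR-720, with a median of 0.883 over the 240 names detected on every array. It was under 0.5 for miR-709 (0.164) and miR-689 (-0.340), as for 16.2% of the 240. Unscaled, miR-709 was 342.5, 371.1, 368.6 and 361.6 intensity units in controls and 336.0, 367.1, 323.2 and 310.3 after Printex 90, in replicate order. These values spanned 1.20-fold over all 8 arrays, against a median span of 1.45-fold over the 240. The within-group SD of its log2 signal was 0.082 before scaling, with 1 of the 240 lower, miR-872, and 0.17 after scaling, with 163 lower.

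Scaling therefore acted on the members in both directions. For miR-720 it lowered the within-group SD of the log2 signal from 0.22 to 0.12. For miR-689 it raised the SD from 0.15 to 0.25, and for miR-690 from 0.14 to 0.15. A smaller SD without scaling was found for 3 of the 4 members, for 22.9% of the 240 names, for 0 of the 6 neighbouring numbers and for 3 of the 17 established lung miRNAs. What part array brightness has in these spreads was not tested.

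**Figure D5:**
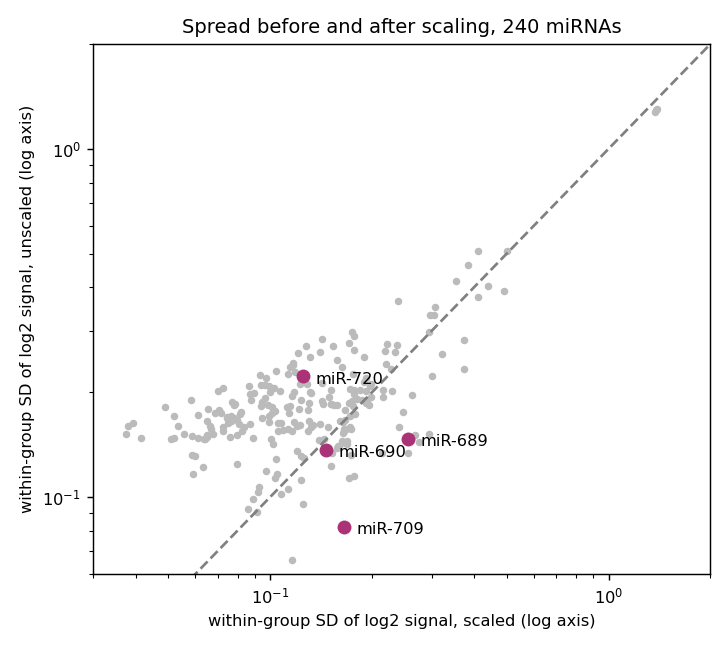
Within-group SD of the log2 signal without scaling (y axis) against the same after scaling (x axis), both on log axes, 1 point for each of the 240 names detected on every array. miR-709, miR-689 and miR-690 lie below the dashed line of equality and miR-720 above it.

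How alike the members ran over the 8 arrays depended on the scaling, and the correlations are given as a description. After scaling, the Pearson correlation of miR-720 was 0.070 with miR-689 (Spearman 0.48), 0.068 with miR-709 (0.48) and -0.0086 with miR-690 (0.21). Among the other 3, miR-689 and miR-709 correlated at 0.89 (Spearman 0.93), miR-690 and miR-709 at 0.77 (0.81), and miR-689 and miR-690 at 0.54 (0.69). All these values share the divisor of each array. Without scaling miR-720 correlated at -0.054 with miR-689, 0.43 with miR-709 and 0.47 with miR-690. The other pairs, in the order above, then correlated at 0.52, 0.86 and 0.20, so miR-720 did not stand apart from the rest in that setting. After scaling, the names most like miR-720 were miR-128 (r = 0.89, Spearman 0.48), miR-219 (0.84, 0.55) and miR-350 (0.83, 0.88). For miR-709 they were let-7b* (0.92), miR-1895 (0.90) and miR-34b-3p (0.89). For miR-689 they were let-7b* (0.94, and 0.35 without scaling), miR-709 (0.89) and miR-149 (0.87), and for miR-690 let-7i* (0.85, detected on 4 of the 8 arrays), miR-18a* (0.84) and miR-1895 (0.82).

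Names with neighbouring numbers, registered near the members, did not pass the test either. Of 7 tested 4 were higher, 2 lower and 1 at the floor on all arrays (median log2 difference 0.024), with 0 past an adjusted or unadjusted p of 0.05 in limma. Those with the smallest p were miR-676 (log2 difference -0.11, SE 0.055) and miR-674* (0.063, SE 0.039), each with a limma adjusted p of 0.706. The miR-676 difference is on floored values, as its Printex 90 mean of 0.0371 lay under the floor of 0.0388. The brightest were miR-706, at 0.221 ± 0.0208 in controls and 0.206 ± 0.0331 after Printex 90, miR-702 (0.186 ± 0.0220 and 0.189 ± 0.00635) and miR-675-3p (0.178 ± 0.0250 and 0.190 ± 0.0133; SD, n = 4). miR-675 is cut from the imprinted H19 transcript. Herpesvirus miRNAs have no source in uninfected mouse lung and serve as a background. Of the 39 on the array, 3 or 4 were detected per array. The brightest of them, mghv-miR-M1-2, measured 0.241 ± 0.0258 in controls and 0.241 ± 0.0304 after Printex 90. Lower were mcmv-miR-M23-1-5p (0.125 and 0.131) and mcmv-miR-m88-1 (0.0601 and 0.0591), also detected on every array. The signals of miR-690, miR-689 and miR-691 were of the size of mghv-miR-M1-2 or smaller, where detection alone does not show a specific signal. Those of miR-690 and miR-689 lay above mcmv-miR-M23-1-5p and mcmv-miR-m88-1 in the group means.

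Markers of other cell types were measured beside the members. The summed scaled signal of 3 red blood cell miRNAs ran from 19.7 to 46.9 in controls and from 21.7 to 30.6 after Printex 90, and all 3 were lower without passing the test. That of 4 striated muscle miRNAs ran from 0.380 to 1.91 and from 0.313 to 3.05, with all 4 lower and 0 passing. The 5 leukocyte miRNAs ran from 7.07 to 9.04 and from 7.43 to 8.85, with 1 higher, 4 lower and 0 passing. The liver miRNA miR-122 ran from 0.0269 to 0.303 and from 0.0172 to 0.439, with both minima under the floor of 0.0388. Over all 268 tested names 176 were lower after Printex 90 and 85 higher, so lower values were not particular to these lists. In bulk lung, fewer cells of a type and less RNA per cell cannot be told apart.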

How the data were processed

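One-colour (Cy3) Agilent miRNA arrays of 8 lung samples were used. Per the labels, RNA was isolated by miRvana kit and Cy3 was added by an Agilent kit. Per the file headers, spot intensity values came from Feature Extraction 10.7.3.1, with extended dynamic range extraction (2 gains). The deposited processed intensity is background-subtracted, as values below 0 show, and its array percentiles differ, so arrays had not been equalized. The authors' deposited log2 table is of unstated processing (its scale is log2-like and its centring and background steps are unknown) and was used only as an alternative. No genome build is named.

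Control spots and outlier spots (2.25% to 2.76%) were dropped. The software marked 0 spots as saturated. Each probe is the average of its spots, each name the sum of its probes (1857 in all). Scaling used the 75th percentile of an array's 240 everywhere-detected mouse names as divisor. Before log2, values under 0.0388 (the 5th percentile of detected signals) were set to it. The 268 names detected on at least 4 arrays were fitted with limma 3.58.1 (R 4.3.3), 2-sided, with Benjamini-Hochberg adjustment. eBayes added 1.02 prior degrees of freedom. The step was tested on simulated data. The number of arrays limits the precision. Hairpins were folded with RNAfold 2.7.2, and 162 array names matched the RefSeq table exactly.

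Named were all 7 members, the 3 most alike by Pearson correlation to each member detected on all arrays, and, of the neighbouring numbers, the 3 brightest and the 2 with the smallest p. miR-341 and miR-872 were named after their values were seen. The members and lists were chosen with earlier results of these data known. Alternatives covered scaling, background (normexp, offset 50, on median spot signals because the files used hold no mean signal), filter, probe summary, outlier spots, floor, spread model, array weights, the authors' table, the replicate block and leaving out each array. Scaling, background, probe summary and outlier spots were also varied for the share of signal.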

Additional observations from a re-analysis of the deposited data

How the results depend on the processing

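No member passed an adjusted p of 0.05 under any alternative run (limma; the lowest was 0.499, for miR-690). Over all names the count of calls was 0 in most settings and 3 (miR-135b, miR-146b and miR-21, none of them a member) with normexp background. It ran from 0 to 3 when 1 array was left out, with 3 without Printex 90 replicate 3. The miR-690 difference stayed below 0 in 23 alternatives, from -0.23 to -0.024. Not all of these could change its sign. By construction the replicate block, the filter choices, the other spread model and the doubled floor left it at the main -0.16. Directions of the other tested members reversed, with causes not tested. For miR-720 the log2 difference was -0.047 without scaling, -0.0060 and -0.049 without control replicate 1 or Printex 90 replicate 2, up to 0.084 without another array, and at most 0.18, with quantile normalization. Quantile normalization gives the top rank the same value on every array. The 0.18 therefore came from control replicate 1, the array where miR-720 ranked 3. For miR-689 it was -0.057 without scaling, -0.010 when the probes' log2 values were averaged, -8.1e-05 with the software's total gene signal and -0.085 with array weights. When 1 array was left out, miR-689 ran from -0.14 to 0.11, and reversed without control replicate 1 (-0.022) or 4 (-0.14) and without Printex 90 replicate 1 (-0.0042) or 3 (-0.011). For miR-709 it was 0.0096 with the percentile over all mouse names, 0.022 with normexp, 0.0084 and 0.010 without control replicate 2 or 3, and 0.021 without Printex 90 replicate 4, the lowest leave-out value being -0.12. For miR-691 it was 0.064 with normexp, 0.14 with the total gene signal, -0.0088 with the floor doubled, and -0.35 to -0.0055 when 1 array was left out. The median share of signal held by the members, 9.43%, was 7.51% with normexp and 7.34% with averaged log2 probes. The groups share replicate numbers, but same-numbered arrays deviated together for 1 number of 4 (correlations -0.14, -0.60, -0.38 and 0.75), and only replicate 4 matched its own number best. A fit with the replicate block made 0 calls. Signals near background limit miR-691, miR-685 and miR-805.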
